A study of Ovis aries with 12 samples.

Results

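The miRNA described here are those known best from white blood cells: miR-142, miR-150, miR-155, miR-223, miR-146a and miR-146b, measured in the left ventricle of the heart of Merino sheep. Members were all probes of the normalised table whose name, without its species prefix, variant suffix and arm, is one of these 6. These 6 of 1907 names on the array had 20 probes for 10 mature arms among the 3091 probes tested. A custom array read with 1 dye (Cy3) was used for total RNA of 12 animals, 3 animals at each of 4 ages. These were fetuses in mid to late gestation (F91, given as 91 days in the sample titles and as 90 days in the stage field), fetuses near term (F140, 141 days in the labels), lambs of 5 days (P5) and sheep of 173 days (P173). All were labelled as controls in normal development, with no treatment or genetic change. F91 replicate 3 was male and the other 11 animals were female. Twins made up all of P5 and also F140 replicate 2, and the other 8 animals were singletons, so that at P5 effects of age and of twin birth cannot be told apart. P5 replicates 1 and 2 carry array names that differ in the last letter only, and the labels do not say whether they were littermates.

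A miRNA is a short RNA cut from one or the other arm of a hairpin, and it represses mRNA that pair with its seed, the bases next to its 5′ end. miR-142 is made in nearly all cells of the blood-forming lineages and is used as their marker in solid tissue. miR-150 is abundant in resting mature lymphocytes, miR-155 is induced when lymphocytes and macrophages are activated, miR-223 belongs to granulocytes and other myeloid cells, and miR-146a and miR-146b are induced by inflammatory signals and dampen them. The heart holds resident macrophages and blood-borne leukocytes beside its muscle cells, fibroblasts and vessels. In RNA of whole tissue, fewer cells of a type and less of the miRNA per cell cannot be told apart.

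The target sequences of the probes on which the results turn are shown 5′ to 3′, as the array's annotation gives them, to show which probes read the same molecule. Capitals mark bases 2 to 8 of each sequence, which are the seed where the probe starts at the first base of the mature miRNA.
oar-miR-150: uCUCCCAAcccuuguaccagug
bta-miR-150: uCUCCCAAcccuuguaccagugu
oar-miR-150_L-3_1ss22GT: cCCAACCCuuguaccaguu
bta-miR-155: uUAAUGCUaaucgugauaggggu
bta-miR-146a: uGAGAACUgaauuccauagguugu
bta-miR-146b: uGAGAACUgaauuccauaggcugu
bta-miR-142-3p_R-3: aGUGUUUCcuacuuuaugg
bta-miR-142-3p_L+3R-6: uGUAGUGUuuccuacuuua
bta-miR-142-5p: cAUAAAGUagaaagcacuac
ggo-miR-142: cCCAUAAAguagaaagcacua
bta-miR-223: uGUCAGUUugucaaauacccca
oan-miR-223-3p: uGUCAGUUugucaaauacccua
The prefixes name the species of each entry (oar sheep, bta cow, hsa human, ggo gorilla, oan platypus, ssc pig), and L and R in a name mark bases added to or taken from the left and right end. The 3 miR-150 probes overlap nearly completely and are repeated readings of one miRNA. The targets of miR-146a and miR-146b share the seed GAGAACU and differ by U21C alone (the base of miR-146a, its position from the 5′ end, the base of miR-146b), and binding of each probe to the other miRNA was not tested. The 2 miR-223 probes differ by C21U (bta-miR-223 first). Among tested probes without a variant suffix, no other name shares the seed of miR-150 (CUCCCAA) or of miR-155 (UAAUGCU). Variant probes were not searched.

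Values are the authors' normalised units on a linear scale, and a reading under 32 units was taken as not above background. Most leukocyte miRNA were near that level in the left ventricle. Of the 20 probes, 8 reached 32 units on at least 3 arrays (1122 of all 3091 probes did), 6 reached 100 units on at least 1 array, and 6 never reached 32 units. On every array 906 to 1064 of all probes were at 32 units or more. The scans differed in brightness before normalisation, the 90th percentile of probe intensity lying between 329 and 821 at F91, between 874 and 1499 at F140, between 1126 and 1480 at P5 and between 697 and 2002 at P173. The dimmest scan of all was F91 replicate 3, and P173 replicate 2 was the dimmest of its age. The heart muscle miRNA gave the check on the tissue, and they were not all steady: miR-133a averaged 11164 ± 2093, 10792 ± 1752, 14964 ± 1213 and 15209 ± 2437 units at F91, F140, P5 and P173 (SD, n = 3 each), and miR-133b was about as bright. miR-1 averaged 16175 ± 3595 units at F140 and 1285 ± 1479 units at F91, and miR-499 8634 ± 1139 units at F140 and 1030 ± 1155 units at F91. Of the heart markers miR-208b reached 32 units on the 3 F140 arrays alone and miR-208a on none. miR-122 of liver, listed as not expected here, reached 32 units on 2 arrays, both of P5, and did not exceed 66 units on any array.

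Changes with age were tested with limma over all 12 arrays on log2(value + 0.1), with Benjamini-Hochberg adjustment over 3091 probes and calls at an adjusted p of 0.05 or less, and every change is later minus earlier age. Over the 4 ages, 5 of the 20 leukocyte probes passed the F-test, where 8.70 % of all probes did. They were the 3 probes of miR-150, the probe of miR-155 and 1 probe of miR-142-3p. Between P173 and F91, 4 leukocyte probes were higher, against 3.24 % of all probes, and 1 was lower, against 3.53 %. Between F140 and F91, 4 were higher (3.85 % of all probes). Between P173 and P5, 3 were higher (0.906 %), and between P5 and F140, 1 was lower (0.971 %). The 3 were the probes of miR-150, which are repeated readings of 1 miRNA. They were also among the 4 higher between P173 and F91, with miR-146a beside them, and the 4 higher between F140 and F91 were all probes of miR-142. By limma none of the 20 was called between P173 and F140, where 5 had an unadjusted p under 0.05 and 2.98 % of all probes were called. None was called between P5 and F91 either, where 1 had an unadjusted p under 0.05 and 2.75 % of all probes were called, and the per-probe analysis of variance named in the methods also gave 0 in both. The 6 contrasts share their arrays.

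**Figure D1:**
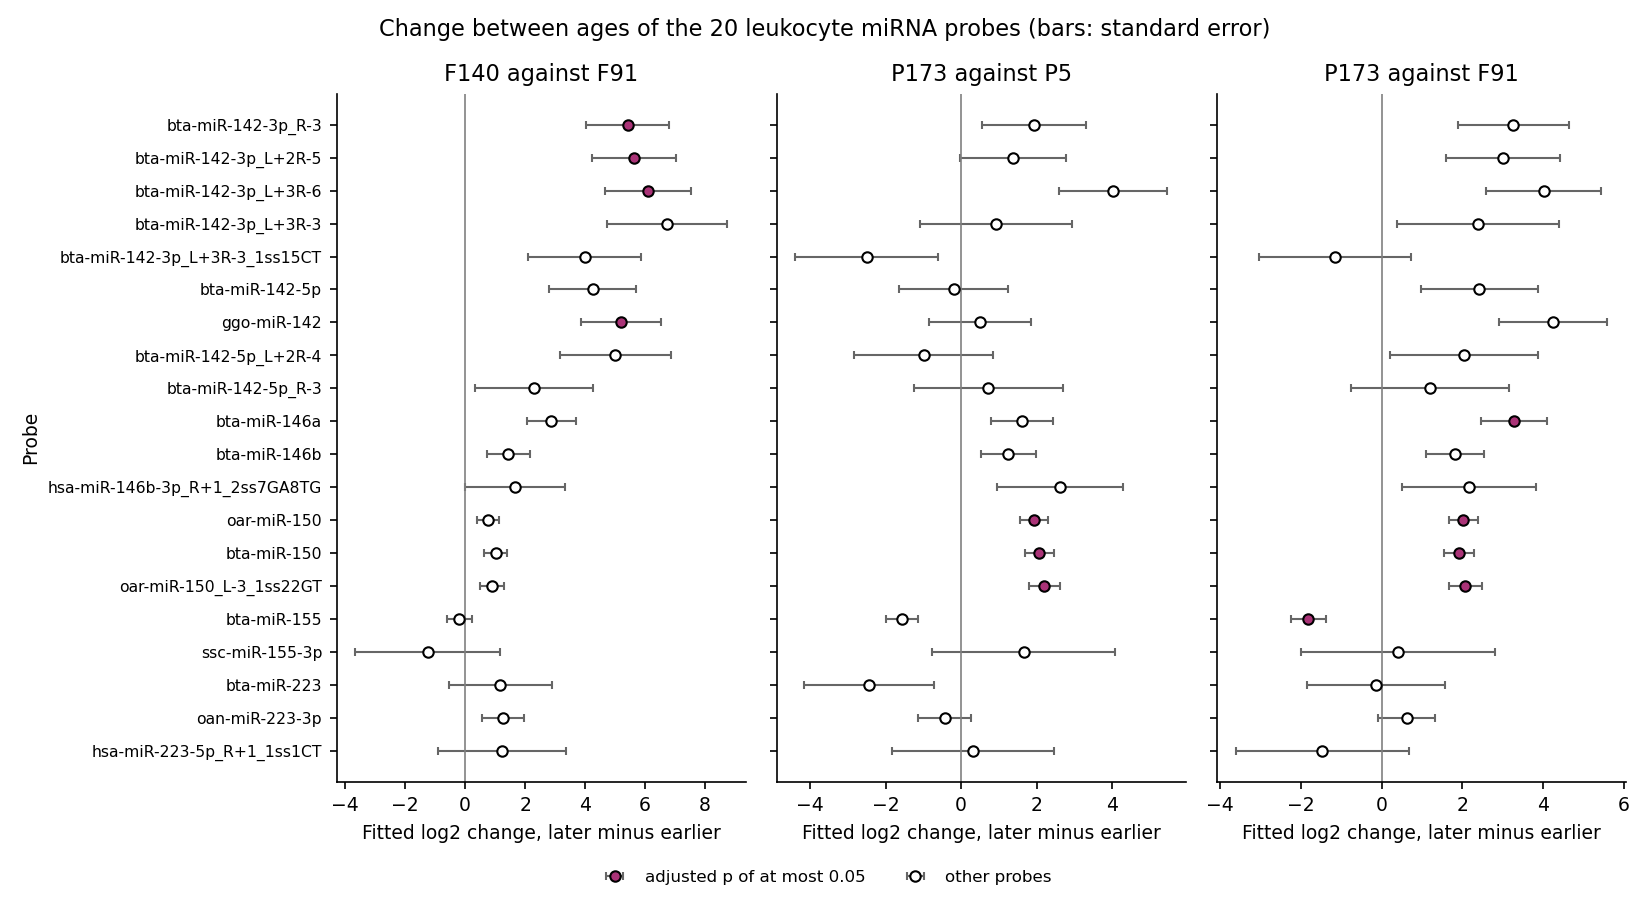
Fitted log2 change (x axis, later minus earlier age) with its standard error for each of the 20 probes (y axis) in 3 contrasts, filled where the adjusted p was 0.05 or less. The 3 miR-150 probes are called on the right of 0 in both contrasts of P173, miR-155 on the left between P173 and F91, and miR-142 probes between F140 and F91.

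miR-150, which holds back the transcription factor MYB in developing lymphocytes of the mouse, was higher in the left ventricle at P173 than at F91 and at P5. The ovine probe oar-miR-150 read 62, 60 and 98 units at F91, 106, 109 and 151 units at F140, 109, 56 and 73 units at P5, and 297, 286 and 291 units at P173. The 3 P173 arrays lay close together and above all 9 others, while F91 and P5 overlapped. Its mean was 291 ± 5.51 units at P173 and 73.3 ± 21.4 units at F91 (SD, n = 3 each), a rise of 2.03 ± 0.37 on the log2 scale (SE, limma adjusted p = 0.0036) or 4.07-fold. Against P5, at 79.3 ± 27.1 units, the rise was 1.93 ± 0.37 (adjusted p = 0.017).

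The other probes of the miRNA gave like values. bta-miR-150, 1 base longer than the ovine probe, averaged 277 ± 3.21 units at P173 and 74.0 ± 13.5 units at F91, with a log2 change of 1.92 ± 0.38 (adjusted p = 0.0058). The shortened probe oar-miR-150_L-3_1ss22GT averaged 314 ± 7.02 units at P173 and 79.3 ± 31.7 units at F91, with a log2 change of 2.08 ± 0.41 (adjusted p = 0.0057). Against P5 their changes were 2.07 and 2.20 (adjusted p = 0.016 for each). Over the 12 arrays the log2 values of the 3 probes correlated at 0.95 to 0.97 pair by pair.

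F140 lay between the low and the high ages for miR-150. The ovine probe averaged 122 ± 25.2 units there, below each P173 array and above each F91 array. Neither difference passed the test, with a log2 change of 1.27 ± 0.37 between P173 and F140 (limma adjusted p = 0.096) and of 0.75 ± 0.37 between F140 and F91 (adjusted p = 0.34). P5 and F140 overlapped on this probe, with a change of -0.66 ± 0.37 (adjusted p = 0.51). They did not overlap on bta-miR-150 (-1.16 ± 0.38, adjusted p = 0.17) or on the shortened probe (-1.01 ± 0.41, 0.28). Of all probes 21.0 % did not overlap between these ages. In the order of the levels P173 thus came first and F140 next, and P5 and F91 were within their spread of each other.

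The rise of miR-150 between P173 and F91 kept its call when any 1 array was left out, with log2 changes of 1.90 to 2.25 for the ovine probe. That between P173 and P5 lost it without P5 replicate 2 (1.71, adjusted p = 0.087), P5 replicate 3 (1.90, 0.072), P173 replicate 1 (1.92, 0.084) or P173 replicate 2 (1.94, 0.054). Of the 3 red blood cell markers 1, miR-486, was also called higher between P173 and F91. Unlike miR-150, it was called higher between P5 and F91 too (1.66, limma adjusted p = 0.003), and between P173 and F140 (1.6, 0.0042). It passed the F-test (adjusted p = 0.00022) and averaged 4243 ± 1149 units at P173 and 623 ± 26.5 units at F91, while miR-451 and miR-144 did not pass. Between P173 and P5 miR-486 changed by 1.06 on the log2 scale, but miR-451 by -1.13 and miR-144 by -1.31, with no call. The summed level of the 3 markers ran from 4818 to 6850 units at P173 against 3065 to 5132 units at P5 and 769 to 2123 units at F91, with miR-144 at 0 on 5 arrays. At P173 miR-486 carried most of that sum. The part of blood in the rise of miR-150 was not tested.

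**Figure D2:**
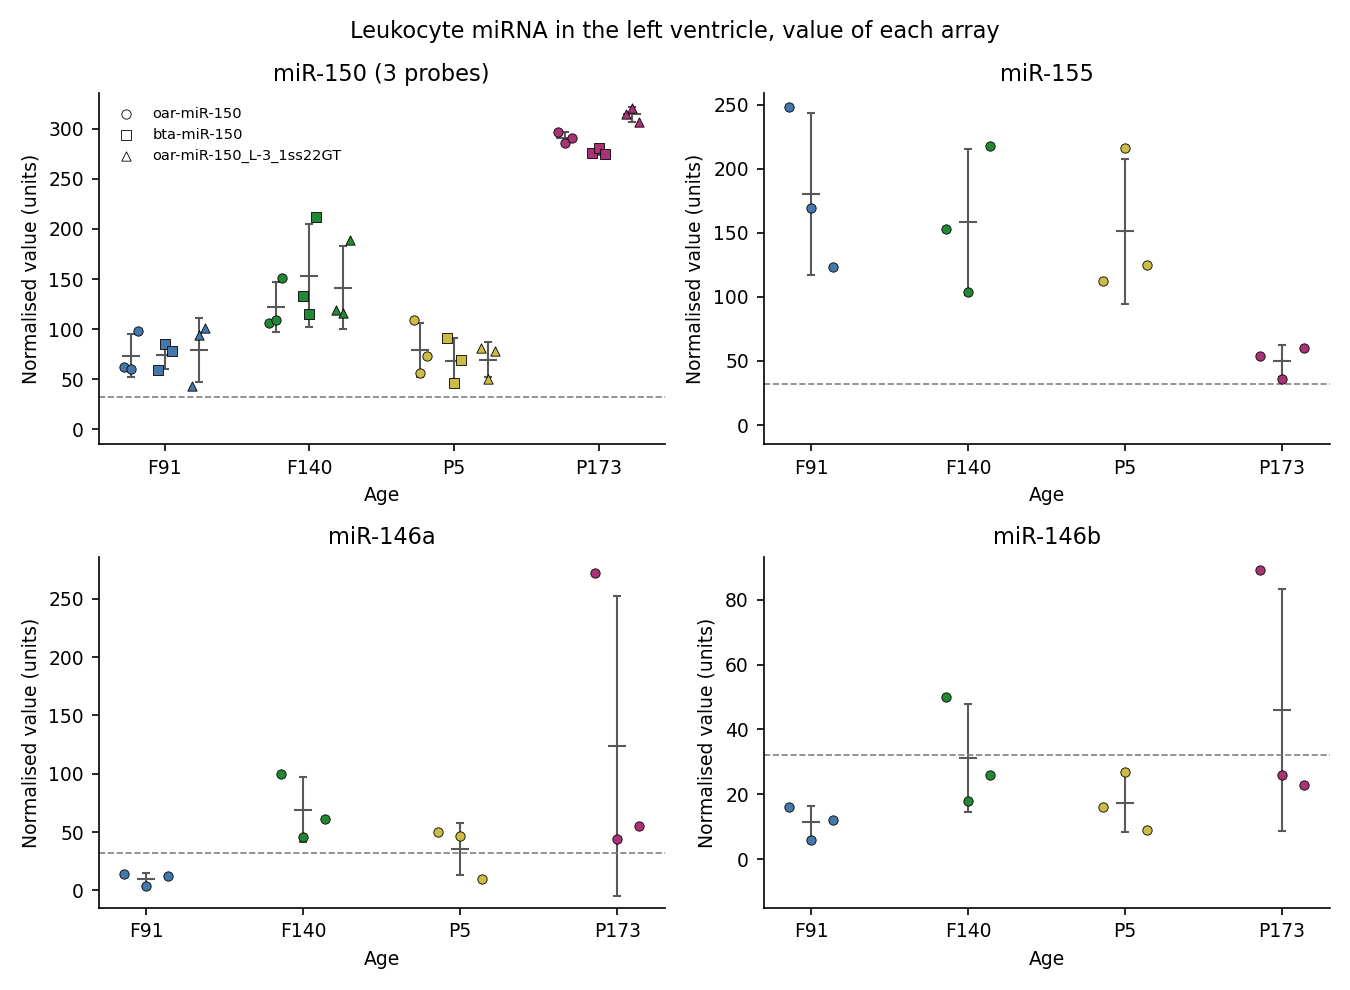
Normalised value (y axis, units) on each array at the 4 ages (x axis) for miR-150, miR-155, miR-146a and miR-146b; points are arrays, bars the mean and SD of 3 arrays, and the dashed line 32 units. The 3 miR-150 probes are highest at P173, miR-155 is lowest at P173, and P173 replicate 1 stands far above the other arrays of its age for miR-146a and miR-146b.

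miR-155, a product of the BIC transcript that lymphocytes and macrophages raise on activation, went the other way. bta-miR-155 read 248, 169 and 123 units at F91, 153, 104 and 218 units at F140, 112, 216 and 125 units at P5, and 54, 36 and 60 units at P173. The 3 P173 arrays were below all 9 others, which overlapped freely across their 3 ages. The mean was 50.0 ± 12.5 units at P173 and 180 ± 63.2 units at F91 (SD, n = 3 each), and the log2 change was -1.82 ± 0.43 (SE, limma adjusted p = 0.019), a level 3.53-fold lower. Against F140, at 158 ± 57.2 units, the change was -1.63 ± 0.43 (adjusted p = 0.066), and against P5, at 151 ± 56.7 units, it was -1.56 ± 0.43 (adjusted p = 0.11). The call between P173 and F91 was lost without F91 replicate 1 (-1.56, adjusted p = 0.051), F91 replicate 2 (-1.84, 0.055) or P173 replicate 2 (-1.60, 0.074). Of the 4 fibroblast markers 1, miR-214, was also called lower between P173 and F91, at 575.7 ± 28.6 units against 7475 ± 2449 units (log2 change -3.65, limma adjusted p = 7.7e-06). It carried the summed level of the 4, 1023 to 1437 units at P173 and 7511 to 10674 units at F91. The other 3 changed by -1.0 (miR-199a), 2.50 (miR-199b) and 0.61 (miR-21) with no call, and the list's median was -0.19. Against F140 the whole list was lower at P173, with a median of -2.29. There miR-214 (-1.72, limma adjusted p = 0.0079), miR-199a (-2.46, 0.03) and miR-21 (-2.59, 0.035) were called, and miR-199b (-2.12) was not. The part of fibroblasts in the fall of miR-155 was not tested.

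The array holds a second probe of miR-155, hsa-miR-155-5p, whose target sequence is that of bta-miR-155 base for base. Its values come from the scanner files alone, after background correction and quantile normalisation of the intensities. On that log2 scale it read 8.31, 8.06 and 7.39 at F91, 7.29, 7.61 and 8.19 at F140, 7.70, 8.30 and 7.71 at P5, and 6.95, 6.89 and 7.10 at P173. The P173 arrays were again below all others. The change between P173 and F91 was -0.94 ± 0.29 (SE, limma adjusted p = 0.072), which missed the threshold, where bta-miR-155 in the same fit changed by -1.14 ± 0.25 (adjusted p = 0.011). Over the 12 arrays both probes differed by a median of 0.12 on the log2 scale and by at most 0.69, on F91 replicate 3, which was a dim scan.

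**Figure D3:**
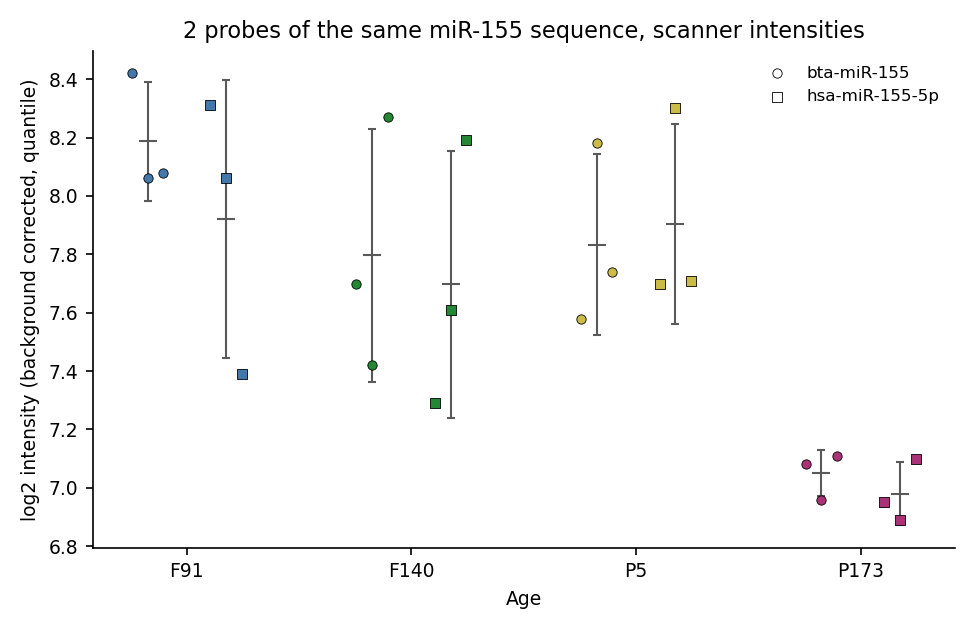
Log2 scanner intensity (y axis) of both probes of the miR-155 sequence on each array at the 4 ages (x axis), with mean and SD of 3 arrays. At P173 both lie between 6.89 and 7.11, below every array of the other ages.

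miR-150 and miR-155 were also set against each other within each array. Both were picked for the levels given above, so that this describes the same readings and tests nothing further. The difference cancels the brightness of an array but not its trend with GC content, which is 54.5 % in the target of oar-miR-150 and 39.1 % in that of bta-miR-155. The log2 value of oar-miR-150 less that of bta-miR-155 was 2.46, 2.99 and 2.28 on the P173 arrays. On the other 9 arrays it ran from -2.00 to 0.07, with means of -1.27 ± 0.86 at F91, -0.33 ± 0.35 at F140 and -0.92 ± 0.96 at P5 (SD, n = 3 each), against 2.58 ± 0.37 at P173. The probes bind with unequal strength, so that only the shift between arrays can be read and not the sign of the difference. The groups before P173 overlapped in part, and none of their arrays came within the range of P173. With the GC trend of each array taken out, chosen after seeing the data, the F91 mean was -1.55 ± 0.33, the F140 mean 0.17 ± 0.42, the P5 mean -0.98 ± 0.85 and the P173 mean 2.41 ± 0.16. The P173 arrays then lay between 2.27 and 2.58, and the highest of the others was at 0.58.

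**Figure D4:**
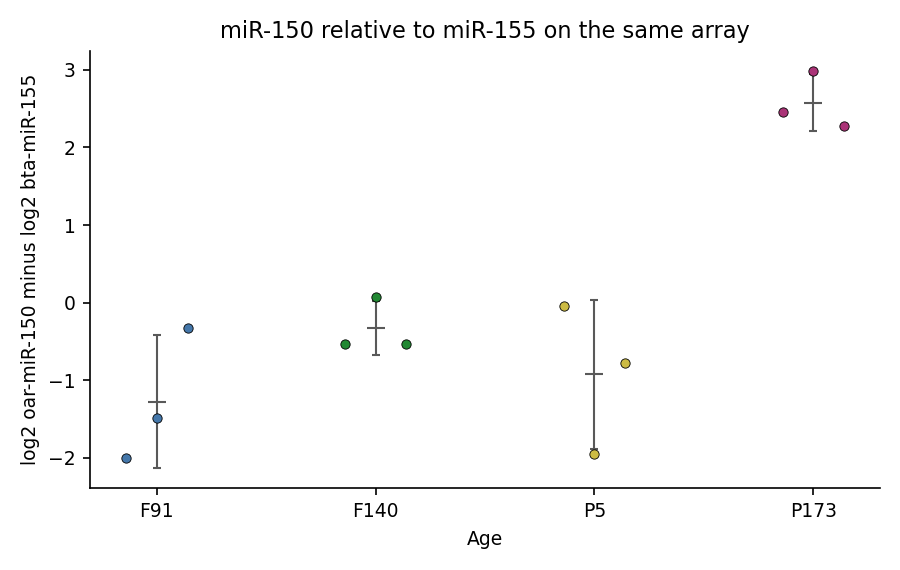
Difference of the log2 values of oar-miR-150 and bta-miR-155 on the same array (y axis) at the 4 ages (x axis), with mean and SD of 3 arrays. The P173 arrays lie between 2.28 and 2.99 and the other 9 between -2.00 and 0.07.

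miR-146a, which is induced through NF-kB and represses the signalling proteins TRAF6 and IRAK1, was below background at F91. bta-miR-146a read 14, 4 and 12 units at F91, 100, 46 and 61 units at F140, 50, 47 and 10 units at P5, and 272, 44 and 55 units at P173. Each P173 and each F140 array was above all F91 arrays, P5 spanned the background level, and P173 replicate 1 was the highest of all. miR-146a rose between P173 and F91 (log2 change 3.29 ± 0.82, SE, limma adjusted p = 0.025). Set against 32 units, since F91 was below background, the P173 level was at least 2.72-fold higher, a bound that P173 replicate 1 sets in large part, since it was 1.54-fold without that array. With all values under 32 units set to 32 the log2 change was 1.44 (adjusted p = 0.38). The change between F140 and F91 was 2.88 ± 0.82 (adjusted p = 0.056). Without P173 replicate 1 the change between P173 and F91 was 2.47 (adjusted p = 0.14), and without F91 replicate 2 it was 2.74 (adjusted p = 0.10).

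miR-146b, made from another gene with the same seed, followed miR-146a from array to array. bta-miR-146b read 16, 6 and 12 units at F91, 50, 18 and 26 units at F140, 16, 27 and 9 units at P5, and 89, 26 and 23 units at P173. P173 replicate 1 and F140 replicate 1 were the only arrays at 32 units or more, and they were also the highest for miR-146a. By scanner intensity the probe was more than 3 SD above the median of empty spots on 4 arrays, replicates 1 and 3 of F140 and replicates 1 and 2 of P173. The change between P173 and F91 was 1.83 ± 0.72 (limma adjusted p = 0.19). The log2 values of both probes correlated at 0.95 over the 12 arrays, a figure that the near-identical targets share in. The probe of the other arm, hsa-miR-146b-3p_R+1_2ss7GA8TG, did not exceed 9 units.

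miR-142, the marker of blood-forming lineages, was at 32 units or more mainly at F140. The 9 probes of its arms miR-142-3p and miR-142-5p are mostly shifted or shortened forms. For miR-142-3p, bta-miR-142-3p_R-3 read 0, 12 and 3 units at F91, 134, 59 and 37 units at F140, 4, 2 and 7 units at P5, and 11, 25 and 12 units at P173. Each F140 array was above every array of the other ages, and F140 replicate 1 was the highest. This probe rose between F140 and F91 (log2 change 5.42 ± 1.38, SE, limma adjusted p = 0.036), to a level at least 2.07-fold higher when set against 32 units. By scanner intensity it was more than 3 SD above the median of empty spots on 5 arrays, the 3 of F140 and replicates 1 and 2 of P173, and so were bta-miR-142-3p_L+2R-5 and bta-miR-142-3p_L+3R-6.

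bta-miR-142-3p_L+2R-5 read 81, 58 and 38 units at F140 against 0, 7 and 2 units at F91, and rose by 5.63 ± 1.41 (adjusted p = 0.033), at least 1.76-fold. bta-miR-142-3p_L+3R-6 read 87, 48 and 18 units at F140 against 0, 1 and 2 units at F91, and rose by 6.11 ± 1.43 (adjusted p = 0.024), at least 1.32-fold. It was also the one leukocyte probe called between P5 and F140, where P5 read 2, 0 and 1 units (limma log2 change -6.11 ± 1.43, adjusted p = 0.047). That call was lost without any 1 array other than F91 replicate 1 or 3 (adjusted p = 0.066 to 0.17). The fitted changes are large because values near 0 were set against values near background, and the folds against 32 units are the sizes these readings allow. The remaining probes, bta-miR-142-3p_L+3R-3 and its C15U form, peaked on F140 replicate 1 too, at 82 and 52 units, and were not called.

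The 5p arm gave the same order of arrays at F140. bta-miR-142-5p read 99, 35 and 21 units at F140 against 8, 13 and 0 units at F91, with a log2 change of 4.25 ± 1.45 (limma adjusted p = 0.12). ggo-miR-142, which by its sequence is the 5p arm starting 2 bases earlier, read 92, 50 and 9 units at F140 against 2, 4 and 0 units at F91, and rose by 5.19 ± 1.34 (adjusted p = 0.038). F140 replicate 3 was under 32 units on both probes, and the bound on the rise of ggo-miR-142 was 1.08-fold. By scanner intensity that array was more than 3 SD above the median of empty spots on both probes, at 131.3 and 115.0. On the same array bta-miR-223 (120.6) and ssc-miR-155-3p (117.5) passed that limit too, with normalised readings of 2 and 7 units. Passing it on this array does not by itself show a signal. F140 replicate 2, at 35 units on bta-miR-142-5p, did not pass the limit. At P173 ggo-miR-142 read 35, 7 and 24 units and overlapped with F140. The shorter forms bta-miR-142-5p_L+2R-4 and bta-miR-142-5p_R-3 did not exceed 31 and 9 units.

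**Figure D5:**
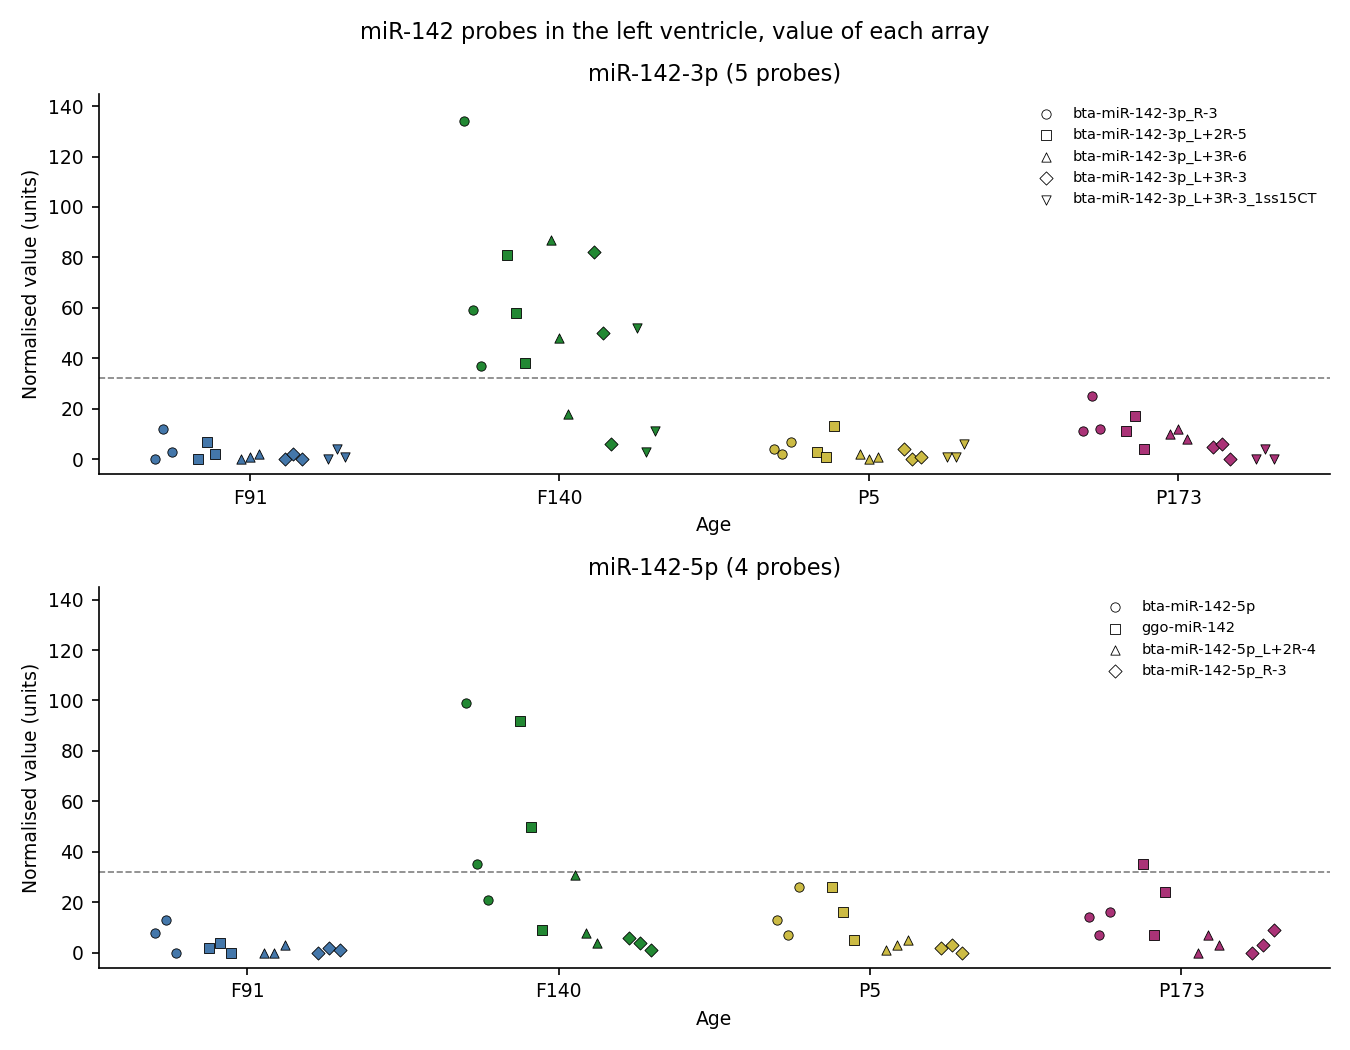
Normalised value (y axis, units) of the 5 probes of miR-142-3p and the 4 probes of miR-142-5p on each array at the 4 ages (x axis); the symbols of each probe stand in order of replicate, and the dashed line is 32 units. At every other age all readings of miR-142-3p lie below the line, and at F140 the first replicate is the highest on each of the 9 probes.

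Between F140 and F91 the arrays of both ages did not overlap for 13 of the 20 leukocyte probes, against 18.5 % of all probes, and the median log2 change of the 20 was 1.98 against 0.07 over all probes. Of the 20, 9 are probes of miR-142 and 6 were under 32 units on all 6 arrays, and with values under 32 units set to 32 the median was 0.41 against 0 over all probes. The 9 miR-142 targets are poor in G and C (31.6 to 38.9 %), and the arrays differed in how values moved with GC content. Per 10 % of GC the log2 value of bright probes moved by -0.465, -0.332 and -0.174 on the F140 arrays and by -0.168, 0.166 and 0.548 on the F91 arrays. With that trend taken out, 1 of the 4 calls remained, ggo-miR-142 (4.61, adjusted p = 0.047), and the miR-142-3p changes were 4.71 to 5.19. The count of calls was 0 without F140 replicate 1 or 2, 1 without F91 replicate 3 or P5 replicate 1, 2 without F140 replicate 3, P5 replicate 2 or P173 replicate 1, 6 without F91 replicate 1, and 1 without both dim scans. The share of all probes called moved as well, from 1.62 % without F140 replicate 1 to 9.84 % without F91 replicate 1.

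Markers of other cells moved between these ages too. At F140, 1 of 1 endothelial marker (miR-126), 3 of 6 heart muscle markers, 1 of 3 red cell markers and 1 of 4 fibroblast markers were higher than at F91, and 1 fibroblast marker, miR-214, was lower. The summed level of the endothelial list was 6044 to 8703 units at F140 and 923 to 4211 units at F91, and that of the fibroblast list was 4400 to 7073 units at F140 and 7511 to 10674 units at F91. miR-214 carried that fibroblast sum, and the other 3 markers lay the other way, the list's median log2 change being 2.33. The one called higher was miR-21 (3.21), while miR-199a and miR-199b, at 1.46 and 4.62, were not called. The part of these cells in the miR-142 result was not tested.

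miR-223, the myeloid miRNA that restrains granulocyte production in the mouse, stayed near or below background at all ages. bta-miR-223 did not exceed 23 units. oan-miR-223-3p read 13, 15 and 8 units at F91, 23, 21 and 45 units at F140, 21, 26 and 26 units at P5, and 27, 6 and 35 units at P173. It was above 32 units on 1 array of F140 and on 1 of P173, and the ages overlapped except that F91 was below both F140 and P5. No change passed the test, that between F140 and F91 being 1.26 ± 0.70 (limma adjusted p = 0.41). The readings of its other arm (hsa-miR-223-5p_R+1_1ss1CT) and of ssc-miR-155-3p did not exceed 14 and 7 units.

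The age of the highest mean thus differed from one leukocyte miRNA to the next, but the tests did not set these ages apart from all others. It was F91 for miR-155, which was not called between F140 and F91 or between P5 and F91 (limma adjusted p = 0.89 and 0.88). F140 was the highest for miR-142-3p and miR-142-5p, and P173 for miR-150. None of these was called between P173 and F140 (adjusted p = 0.52, 0.64 and 0.096 on the probe of each arm). For miR-146a and miR-146b the highest mean was at P173 too, but on P173 replicate 1 alone. Without that array the P173 means were 49.5 and 24.5 units, below the 69.0 and 31.3 units of F140. With all arrays neither passed the test between P173 and F140 (limma adjusted p = 0.88 and 0.86). Between P173 and F91, 8 of the 20 probes did not overlap (18.4 % of all probes), and their median log2 change was 2.04 against 0.01 over all probes. Between P173 and P5, 6 did not overlap (17.5 %), with a median of 1.09 against -0.16. In both contrasts 12 of the 20 probes were under 32 units on all 6 arrays, and with values under 32 units set to 32, chosen for these medians after seeing the data, both medians were 0. These medians are therefore set by readings near 0, and no common shift is read from them. The summed reading of 1 probe for each of the 10 arms lay between 256 and 368 units at F91, between 395 and 662 units at F140, between 272 and 374 units at P5 and between 428 and 758 units at P173.

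Of the other miRNA known from immune cells, 19 of 21 listed were on the array, 7 of them never at 32 units, and 5 passed the F-test: miR-181a, miR-181b, miR-181c, miR-24 and miR-125a. These miRNA are also made by muscle and connective tissue. Between P173 and F91, 1 of the 19 was higher and 4 were lower, with a median log2 change of -0.06. miR-181a, which tunes T cell receptor signalling in the mouse thymus, averaged 1593 ± 318 units at P173 and 6475 ± 2207 units at F91 (SD, n = 3 each; log2 change -1.98 ± 0.29, SE, limma adjusted p = 0.00059). miR-125a averaged 3522 ± 631 units at P173 and 8271 ± 1671 units at F91, a change of -1.23 ± 0.26 (adjusted p = 0.0093). miR-24 averaged 6551 ± 334 units at P173 and 2661 ± 676 units at F91, a change of 1.33 ± 0.25 (adjusted p = 0.0041).

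For each leukocyte miRNA that averaged 100 units or more at some age, the miRNA with the most similar pattern were found by Pearson correlation of log2 values over the 12 arrays, among 300 names. For miR-150 they were miR-4454 (r = 0.906), miR-7977 (0.897) and miR-193b (0.848), and for miR-155 miR-411a-3p (0.92), miR-493-5p (0.917) and miR-16-5p (0.914). For miR-146a they were miR-27b (0.873), mir-4454-p5 (0.861) and miR-6119-5p (0.856). The 12 points share the 4 age groups and the normalisation of each array. miR-411a-3p, nearest to miR-155, was also the name most opposed to miR-150 (r = -0.894), with means of 563, 277, 227 and 33.3 units at F91, F140, P5 and P173.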

How the data were processed

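A custom miRNA array had been run on left ventricle RNA of 12 sheep, and 12 scanner files and 2 normalised tables were used. Per the file headers and the study's methods, the authors background corrected the values, normalised them by lowess and combined the spots of a probe. The score of each probe in the deposited whole-number table was the value used, with its intensity in the deposited series table as an alternative; they differ by at most 0.5 units. The scanner intensity per spot deposited by the authors is not normalised, and member probes have 3 spots per array. Of 3146 table entries, 55 controls were left out. The methods name the CLCBIO Genomics Workbench for correction and normalisation, and the table's header names lowess.

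Log2(value + 0.1) was fitted with limma 3.58.1 (lmFit, eBayes with trend) in R 4.3.3, with all 12 arrays in 1 fit and Benjamini-Hochberg adjustment over 3091 probes. The script was tested on simulated data. An age with all 3 arrays under 32 units was treated as below background, and a fold against it is a bound. Tables were handled with pandas 2.3.3 in Python 3.11.15. The files carry no detection calls, and the number of arrays limits the precision. Genome positions were not analysed here.

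Members, lists and tests were chosen with earlier results of these data known. Every member is accounted for. Each arm is represented by 1 probe, with the other probes of the members given beside it, and each name of the other lists by 1 probe. From other lists at most the 3 brightest past the F-test are described, and miR-486, miR-214, miR-126 and miR-133a as markers. Alternatives varied the pseudocount, the background floor, the filter, the variance trend, the test, the normalisation, the GC trend, the replicate block and the arrays used. Whether littermates or separate dams lie behind the replicates is not stated, so that p-values measure the spread between these animals.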

Additional observations from a re-analysis of the deposited data

Results flagged for a closer look

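The second miR-155 probe (hsa-miR-155-5p) lies outside the normalised table. Its scanner intensity was more than 3 SD above the median of empty spots on 12 of 12 arrays. Its levels were lowest at P173, as were those of bta-miR-155. No control sample without miR-155 exists among the 12 arrays.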

How the results depend on the processing

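No tested result changed direction. Without a variance trend the F-test called 0 of the 20 leukocyte probes (5 otherwise), P173 against F91 3 (5), P173 against P5 0 (3), F140 against F91 0 (4) and P5 against F140 0 (1). The share of all probes called fell too, in that order to 3.33 % (8.7 % otherwise), 4.11 % (6.76 %), 0.291 % (1.59 %), 1.2 % (5.53 %) and 0.194 % (1.81 %). With values under 32 units set to 32 the F-test called 3, and F140 against F91 and P5 against F140 0 each (6.24, 4.56 and 1.49 % of all probes). With the methods' analysis of variance the same 3 counts were 3, 0 and 0 (5.86, 3.53 and 0.485 % of all probes). A pseudocount of 1 gave 9 probes by the F-test and 3 for P5 against F140 (9.61 and 2.72 % of all probes). One of 16 gave 8, 4 and, for P173 against F140, 3 (0 otherwise), beside 10.8, 3.79 and 5.31 % of all probes. Scanner intensities gave 3 for P5 against F140 and 6 for P173 against F140 (3.71 and 5.13 % of all probes). The filter on dim probes gave 0 and 2 (7.4 and 11.5 % of the 1122 probes kept). Quantile normalisation gave 0 for P5 against F140 (1.91 % of all probes). With the GC trend taken out F140 against F91 had 1 call and P5 against F140 0 (5.08 and 1.97 % of all probes). With 2 ages alone F140 against F91 and P5 against F140 had 0, P173 against F91 3 and P173 against F140 1. Of all probes 0.291, 0.809, 2.94 and 3.27 % were called there, in that order.

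Chosen after seeing the data, leaving out both dim scans gave 3 by the F-test, 3 for P173 against F91, 1 for P173 against P5, 1 for F140 against F91 and 0 for P5 against F140. Of all probes 5.63, 4.5, 0.776, 3.46 and 1.68 % were then called, in that order. Leaving out 1 array at a time gave 3 to 8 by the F-test, 3 to 5 for P173 against F91, 0 to 3 for P173 against P5, 0 to 1 for P173 against F140, 0 to 6 for F140 against F91 and 0 to 3 for P5 against F140. P173 against F91 had 3 without F91 replicate 2 (5.37 % of all probes). The F-test had 8 without F91 replicate 1 (12.7 %) and 3 without F140 replicate 1 (5.92 %), P173 replicate 1 (6.66 %) or P173 replicate 2 (6.89 %). The causes were not tested. P5 against F91 had 0 calls in all 28 alternatives.

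The labels give no pairing of animals across ages, and over all ages the replicate numbers did not pair the arrays: deviations from the age means correlated above 0.1 in 7 of 18 same-numbered pairs (-0.525 to 0.513), and the best match of an array had its own number in 13 of 36 cases. Between F91 and F140 alone all 3 pairs did correlate (0.495 to 0.513), and there the block gave 5 calls over all 12 arrays (4 without it), while the 2 ages alone gave 0 with and without it. The replicate block gave 0 for P5 against F140 and no other count beyond 1.5 times. With the GC trend out as well it gave 1 for F140 against F91 and 0 for P5 against F140. With 2 ages alone and the block, added after seeing the data, there were 0 calls for P173 against F91, P173 against P5, F140 against F91 and P5 against F140. That setting called 0 of all 3091 probes in every contrast, so its 0 is not particular to the leukocyte probes.

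The miR-150 rise between P173 and F91 lost its call in 1 alternative on each probe (2 ages alone with the block), the miR-155 fall in 7 of 28 and the miR-146a rise in 8 of 28. That 1 alternative called 0 of all 3091 probes, and it is counted among the 7 and the 8 too. With values under 32 units set to 32 the miR-146a change was 1.44 (adjusted p = 0.38) and that of bta-miR-142-3p_R-3 between F140 and F91 1.05 (0.24). Median centring moved the median change of all probes between P173 and P5 to -0.027, against -0.161 otherwise.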
